A study of Homo sapiens and Mus musculus with 18 samples.

Results

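The heat-shock chaperone genes described here are HSPA1A, HSPA1B, HSPA8, HSPH1, DNAJB1, HSP90AA1, HSP90AB1, HSPB1, HSPD1 and HSPE1. They were found by symbol, ignoring case, in the 2 deposited expression tables of a study that irradiated lymphoma cell lines with protons or X-rays. The table of the human line BL41 held 9 of the 10 genes and that of the mouse line J3D held all 10, each as 1 entry, which makes 19 of 27333 entries in both tables. HSPA1A was not among the symbols of the BL41 table. Each line had 9 libraries of total RNA. There were 3 after 5 Gy of protons from a scanned beam, given mid-way through a spread-out Bragg peak, 3 after 5 Gy of X-rays from a linear accelerator, and 3 of sham-handled cells. RNA was taken 12 h after irradiation, and the sham cells had stood at room temperature outside the incubator while the others were irradiated. Each species is represented by 1 cell line, and both lines carry the tumour label Burkitt lymphoma.

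Heat-shock chaperones fold new proteins and hold or refold damaged ones. In resting cells the transcription factor HSF1 is kept inactive by chaperones, and unfolded protein releases it to bind heat-shock elements, arrays of the unit nGAAn in alternating orientation. HSPA1A and HSPA1B are the inducible HSP70 genes, HSPA8 encodes the constitutive HSP70, DNAJB1 a J-domain partner that stimulates HSP70, and HSPH1 an HSP110 protein that exchanges its nucleotide. HSP90AA1 and HSP90AB1 encode the stress-inducible and the constitutive cytosolic HSP90, HSPB1 encodes the small heat-shock protein HSP27, and HSPD1 and HSPE1 encode the mitochondrial chaperonin pair HSP60 and HSP10.

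The promoters of the human genes are shown because heat-shock elements are the feature by which these genes are known to be controlled together. RefSeq windows of 300 bases (GRCh38.p14, 250 bases before to 50 after an annotated start) were found for all 10 genes, 16 windows in all. They were searched for GAANNTTC and TTCNNGAA, the pairs of inverted units, and for arrays of 3 units, which are GAANNTTC followed by NNGAA or TTCNNGAA followed by NNTTC and so contain both pairs. The pairs read the same on either strand, and the arrays of 3 units are each other's reverse complement. At least 1 pair occurred in 8 of the 10 genes and 3 units in 4 of them (HSPA8, HSP90AA1, HSP90AB1 and HSPD1). Counted by window, 9 of the 16 held a pair and 4 of the 16 held 3 units. Among all 35116 windows of this length, 13.5% held a pair and 0.49% held 3 units. The windows of HSPH1 and HSPE1 held no match, which says only that these letters are not in those 300 bases. HSPD1 and HSPE1 lie head to head, and 1 HSPD1 window shares 204 bases with that of HSPE1. Below are HSPA8 (chr11:123062087-123062386, minus strand) and HSP90AA1 (chr14:102086995-102087294, minus strand), as examples with arrays of 3 units. HSPA1B (chr6:31827488-31827787, plus strand) and HSPB1 (chr7:76302423-76302722, plus strand) are examples with 1 pair and no array. Over the 9 BL41 libraries, each member was correlated with the mean of the other members. For genes with 3 units the values were 0.931 (HSPA8), 0.937 (HSP90AA1), 0.669 (HSP90AB1) and 0.881 (HSPD1). Genes with pairs only had 0.832 (DNAJB1), 0.033 (HSPA1B) and −0.797 (HSPB1), and those without a match 0.978 (HSPH1) and 0.798 (HSPE1). A relation between the matches and these values was not tested. Capitals mark every base of a match, and each sequence reads 5′ to 3′ towards the gene.
HSPA8: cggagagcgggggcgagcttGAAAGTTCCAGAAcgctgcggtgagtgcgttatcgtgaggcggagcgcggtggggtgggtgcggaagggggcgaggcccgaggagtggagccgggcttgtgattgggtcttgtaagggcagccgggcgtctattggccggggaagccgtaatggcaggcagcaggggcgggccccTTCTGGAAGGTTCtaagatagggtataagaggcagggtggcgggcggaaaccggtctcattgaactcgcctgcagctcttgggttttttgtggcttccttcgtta
HSP90AA1: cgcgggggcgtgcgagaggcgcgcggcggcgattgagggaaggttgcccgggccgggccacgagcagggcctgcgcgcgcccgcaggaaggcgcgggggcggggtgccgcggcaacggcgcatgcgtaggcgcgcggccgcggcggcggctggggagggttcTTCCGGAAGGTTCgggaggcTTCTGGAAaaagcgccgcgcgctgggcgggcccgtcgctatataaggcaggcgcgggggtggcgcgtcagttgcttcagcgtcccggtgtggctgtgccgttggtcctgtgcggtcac
HSPA1B: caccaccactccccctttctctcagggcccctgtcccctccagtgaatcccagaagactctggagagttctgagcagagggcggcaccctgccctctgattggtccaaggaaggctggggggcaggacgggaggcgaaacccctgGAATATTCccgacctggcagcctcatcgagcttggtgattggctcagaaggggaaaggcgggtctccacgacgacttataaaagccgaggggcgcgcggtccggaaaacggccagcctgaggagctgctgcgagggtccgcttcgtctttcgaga
HSPB1: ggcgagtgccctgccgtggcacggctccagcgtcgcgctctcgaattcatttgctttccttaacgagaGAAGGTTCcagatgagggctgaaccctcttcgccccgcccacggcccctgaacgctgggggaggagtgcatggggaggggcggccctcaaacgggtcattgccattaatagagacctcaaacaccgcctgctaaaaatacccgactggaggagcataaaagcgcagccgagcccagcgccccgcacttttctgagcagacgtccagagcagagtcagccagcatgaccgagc

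The matching stretch nearest to the start began 55 bases before it in HSPA8, 68 in HSP90AA1, 105 in HSPA1B and 182 in HSPB1. The matches describe sequence, and binding of a factor was not measured in these data.

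**Figure D1:**
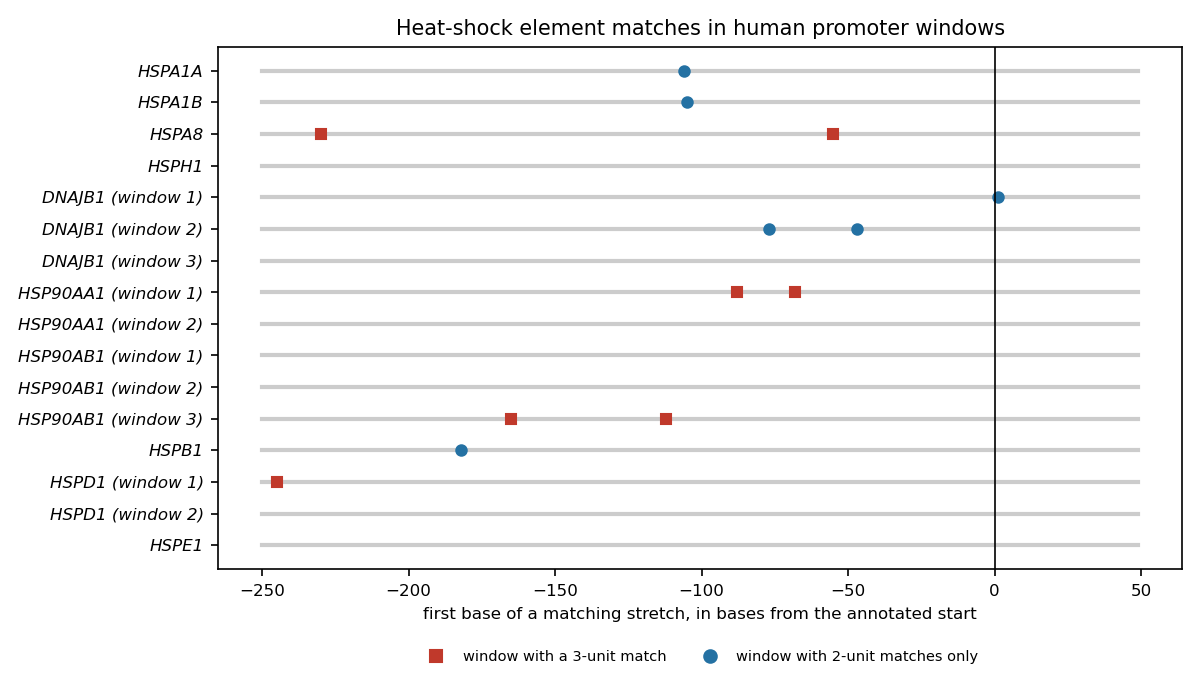
Positions of heat-shock element matches in the 16 human promoter windows of the 10 genes. The x axis gives the first base of each matching stretch in bases from the annotated start, each line is 1 window, squares mark windows that hold 3 units and circles windows that hold pairs only; 8 genes have at least 1 match and HSPH1 and HSPE1 have none.

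All expression values below are on the deposited scale, read as log2. Each gene was inferred from the values to be centred within a library number (1, 2 or 3 in the labels). On this scale 0 is a baseline and not an absence of transcript. Absolute levels, levels between genes and sequencing depth are therefore unknown, and in bulk RNA fewer cells and less RNA per cell cannot be told apart. BL41 carried 15 of 16 B-cell markers in its table, while J3D carried 1 of 16 (Cd22) and lacked Ms4a1, Cd79a, Cd79b and Pax5. The J3D table held 8 of 18 stromal, epithelial and erythroid markers, Gata1 and Klf1 among them, so its markers do not match a B-cell label. In BL41 the p53 target CDKN1A rose by 0.78 ± 0.094 after protons (SE, n = 3 per group, limma adjusted p = 0.0129) and by 0.84 ± 0.094 after X-rays (limma adjusted p = 0.00869). These calls were lost without proton library 1 or 3, without X-ray library 1, and with a replicate block. Over all genes those fits left 3, 0, 0 and 0 calls. The J3D values for Cdkn1a were −0.35 ± 0.19 after protons and 0.17 ± 0.19 after X-rays, and neither passed. J3D libraries of number 1 were the most spread over all genes, with interquartile ranges of 0.342 to 0.395 against 0.139 to 0.238 in the other 6, and sham library 2 had the lowest mean of the BL41 libraries (−0.133).

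No heat-shock chaperone gene passed the threshold in any comparison. In BL41 0 of 9 were called after protons by limma (adjusted p under 0.05), where 6.82% of all genes were (5.91% higher and 0.903% lower), and 0 of 9 after X-rays, where 5.35% were (4.83% higher and 0.518% lower). In J3D 0 of 10 were called after either beam, and 0.0% of all genes were. Between protons and X-rays 0 were called in either line, against 0.0% of all genes in both. At an unadjusted p under 0.05 there were 7 of 9 BL41 genes after protons, where 28.4% of all genes stood under that value, and 1 of 9 after X-rays, where 23.6% did. In J3D these counts were 2 of 10 after protons (19.8% of all genes) and 0 of 10 after X-rays (6.24% of all genes). Rescaling alone changed the BL41 counts: with trimmed means, and likewise with quantile normalization, 1 of 9 genes stood under that value after protons and 0 of 9 after X-rays. Of all 15069 genes, 3206 after protons and 3070 after X-rays stood under it with trimmed means. With quantile normalization these all-gene counts were 3273 and 2645. With the library number as a replicate block, limma called 0 genes of any kind in each comparison (0.0%), and the BL41 count at an unadjusted p under 0.05 was 1 of 9 after protons, where 2829 of 15069 genes stood under it, and 0 of 9 after X-rays, where 2428 did. The blocked J3D count was 2 of 10 after protons, where 1134 of 12264 genes stood under it, and 0 of 10 after X-rays, where 413 did.

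The sizes leaned one way after protons in BL41. The median fold change of the 9 genes was 0.34 after protons, beside 0.12 over all genes, and 0.060 after X-rays, beside 0.093 over all genes. In J3D the medians of the 10 genes were 0.14 after protons (0.046 over all genes) and 0.13 after X-rays (0.0023 over all genes). Single libraries moved some of these medians. The J3D proton median was 0.064 without proton library 1. The J3D X-ray median was 0.27, 0.037 and 0.037 without X-ray libraries 1, 2 and 3, and 0.058 without sham library 1. The BL41 X-ray median ran from −0.0037 without sham library 2 to 0.20 without X-ray library 1. Above 0 after protons were 8 of 9 BL41 genes, where 71.5% of all genes were, and 7 of 10 J3D genes, where 56.9% were. After X-rays 7 of 9 and 7 of 10 were above 0, where 68.5% and 50.7% of all genes were. When each library was rescaled to its trimmed mean, the counts after protons were 8 of 9 in BL41 and 6 of 10 in J3D, and those after X-rays 3 of 9 and 7 of 10. The median over all genes was then 0.0044 in BL41 and 0.0068 in J3D after protons, and −0.0056 and −0.0017 after X-rays. The shares of all genes above 0 given here hold for the deposited values only. Above sham at every library number after protons were 6 of 9 BL41 genes, where 35.8% of all genes were, and 5 of 10 J3D genes, where 30.1% were. After X-rays this held for 0 of 9, where 29.8% of all genes were, and for 1 of 10 (Hspa1a), where 11.7% were.

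**Figure D2:**
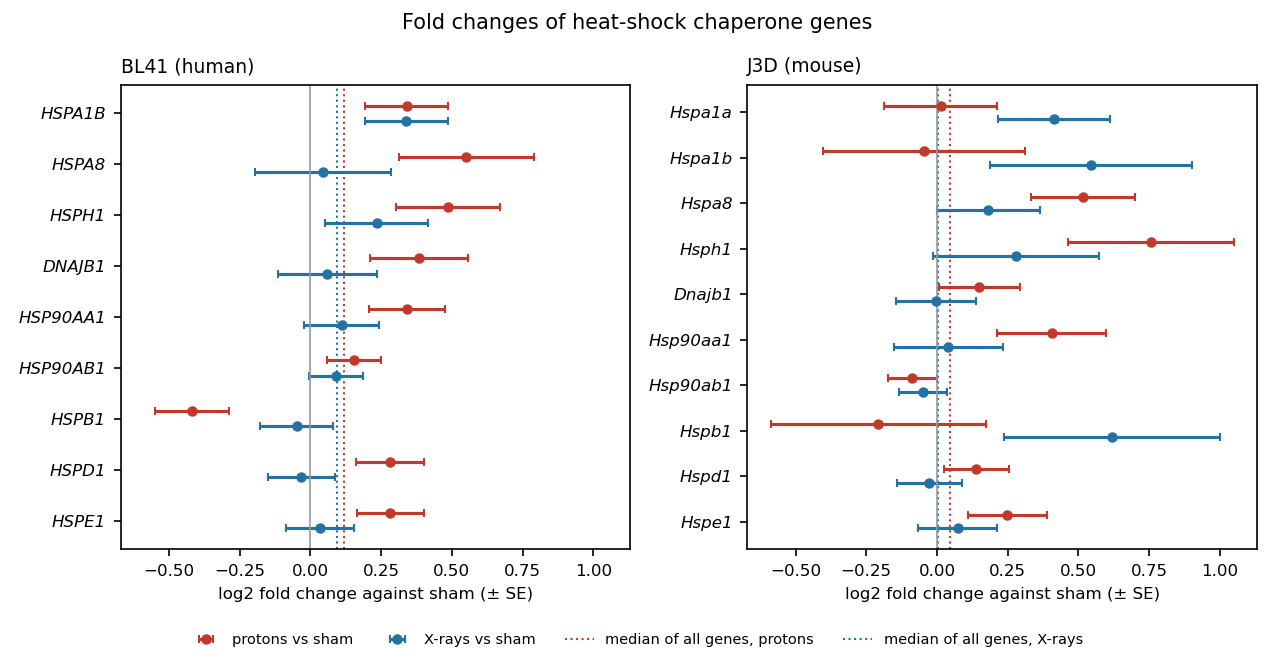
Log2 fold change against sham (x axis, ± SE) of each heat-shock chaperone gene (y axis) after protons and X-rays, with n = 3 libraries per group; dotted lines mark the median of all genes. In BL41 the proton values run from −0.42 (HSPB1) to 0.55 (HSPA8), and in J3D the X-ray values of Hspa1a, Hspa1b and Hspb1 are the highest of that beam.

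The HSP70 machinery held the highest proton values in BL41. The constitutive HSP70 gene HSPA8 (ENSG00000109971) had 0.50, 0.28 and 0.043 in proton libraries 1, 2 and 3, −0.73, 0.10 and −0.069 in the X-ray libraries, and −0.29, −0.57 and 0.030 in the sham libraries. Its proton libraries all lay above the sham libraries, by a narrow gap at number 3, while X-ray library 1 was the lowest of the 9. Its fold change was 0.55 ± 0.24 after protons (limma adjusted p = 0.169) and 0.045 ± 0.24 after X-rays (limma adjusted p = 0.937), and the X-ray value was −0.053 with trimmed means. HSPH1, the HSP110 nucleotide exchange factor, had 0.42, 0.14 and −0.021 in proton libraries, −0.39, 0.19 and −0.016 in X-ray libraries, and −0.36, −0.49 and −0.065 in sham libraries. Here too the proton and sham groups did not overlap, and the X-ray group reached from below the middle sham value to above the middle proton value. The HSPH1 fold change was 0.49 ± 0.18 after protons (limma adjusted p = 0.125) and 0.23 ± 0.18 after X-rays (limma adjusted p = 0.48).

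DNAJB1, the J-domain partner of HSP70, had 0.33, 0.32 and −0.065 in BL41 proton libraries, −0.44, −0.014 and 0.058 in X-ray libraries, and −0.11, −0.46 and −0.0086 in sham libraries. Proton libraries 1 and 2 stood above all others, while proton library 3 fell within the sham values, so the groups overlapped. Its fold change was 0.38 ± 0.17 after protons (limma adjusted p = 0.181) and 0.060 ± 0.17 after X-rays (limma adjusted p = 0.876), and the X-ray value was −0.038 with trimmed means. The inducible HSPA1B had 0.10, −0.034 and 0.16 in proton libraries, 0.14, 0.082 and −0.0033 in X-ray libraries, and −0.47, 0.11 and −0.44 in sham libraries. Both irradiated groups lay close together, sham libraries 1 and 3 lay far below them, and sham library 2 lay among them. HSPA1B had nearly equal fold changes after both beams, 0.34 ± 0.15 after protons (limma adjusted p = 0.166) and 0.34 ± 0.15 after X-rays (limma adjusted p = 0.201). Without sham library 2 the proton value of HSPA1B was 0.53 and passed the threshold (limma adjusted p = 0.0454). The X-ray value was then also 0.53 and did not pass (limma adjusted p = 0.0539). In that fit 460 of 15069 genes were called after protons and 233 after X-rays. The BL41 table lists HSPA1B under ENSG00000231555, whereas the reference annotation used here gives the gene as ENSG00000204388. HSPA1A and HSPA1B are near-identical copies, so how the authors' counting divided their reads is uncertain, also for the J3D values below.

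The HSP90 pair differed in size in BL41. HSP90AA1, the stress-inducible form, had 0.29, 0.035 and 0.13 in proton libraries, −0.26, 0.12 and −0.10 in X-ray libraries, and −0.35, −0.27 and 0.040 in sham libraries. All proton values were above 0, but sham library 3 stood just above proton library 2, so the groups overlapped. Its fold change was 0.34 ± 0.13 after protons (limma adjusted p = 0.135) and 0.11 ± 0.13 after X-rays (limma adjusted p = 0.665). HSP90AB1, the constitutive form, kept within a narrow band, with 0.019, 0.090 and 0.060 in proton libraries, −0.043, 0.12 and −0.097 in X-ray libraries, and −0.050, −0.29 and 0.042 in sham libraries. Apart from sham library 2, every HSP90AB1 value lay within 0.12 of 0, and the groups overlapped. The fold change was 0.15 ± 0.095 after protons (limma adjusted p = 0.311) and 0.090 ± 0.095 after X-rays (limma adjusted p = 0.614), and the X-ray value was −0.0083 with trimmed means.

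HSPB1, the small heat-shock protein gene, ran against the others in BL41. It had −0.36, −0.033 and −0.23 in proton libraries, 0.23, 0.057 and 0.20 in X-ray libraries, and 0.36, 0.061 and 0.21 in sham libraries. The proton libraries were the 3 lowest of the 9 and overlapped neither other group, while X-rays minus sham was −0.13, −0.0042 and −0.0069 at numbers 1, 2 and 3. The fold change was −0.42 ± 0.13 after protons, with the smallest adjusted p of any member (limma adjusted p = 0.0786, or 0.233 with the replicate block), and −0.048 ± 0.13 after X-rays (limma adjusted p = 0.867). With quantile normalization the proton value was −0.53 and passed (limma adjusted p = 0.0427). It was the 1 of 9 members below sham without overlap after protons, where 6.52% of all genes were.

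The mitochondrial chaperonin pair had near-equal proton values in BL41. HSPD1 (HSP60) had 0.27, 0.056 and 0.16 in proton libraries, −0.32, 0.049 and −0.19 in X-ray libraries, and −0.21, −0.21 and 0.061 in sham libraries. All 3 proton values were above all 3 X-ray values, and sham library 3 fell between proton values. HSPE1 (HSP10) had 0.28, −0.016 and 0.11 in proton libraries, −0.25, 0.016 and −0.14 in X-ray libraries, and −0.33, −0.085 and −0.057 in sham libraries. Its proton libraries lay above the sham libraries without overlap, and X-ray library 2 lay above proton library 2. The fold changes after protons were 0.28 ± 0.12 for HSPD1 and 0.28 ± 0.12 for HSPE1 (limma adjusted p = 0.16 for each). After X-rays HSPD1 had −0.032 ± 0.12 and HSPE1 had 0.033 ± 0.12, which was −0.065 with trimmed means. Proton groups above sham without overlap were thus 3 of 9 members (HSPA8, HSPH1 and HSPE1), a share near the 28.0% of all genes that did so. After X-rays 0 of 9 stood clear of sham on either side, where 21.6% of all genes were higher and 4.61% lower without overlap.

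**Figure D3:**
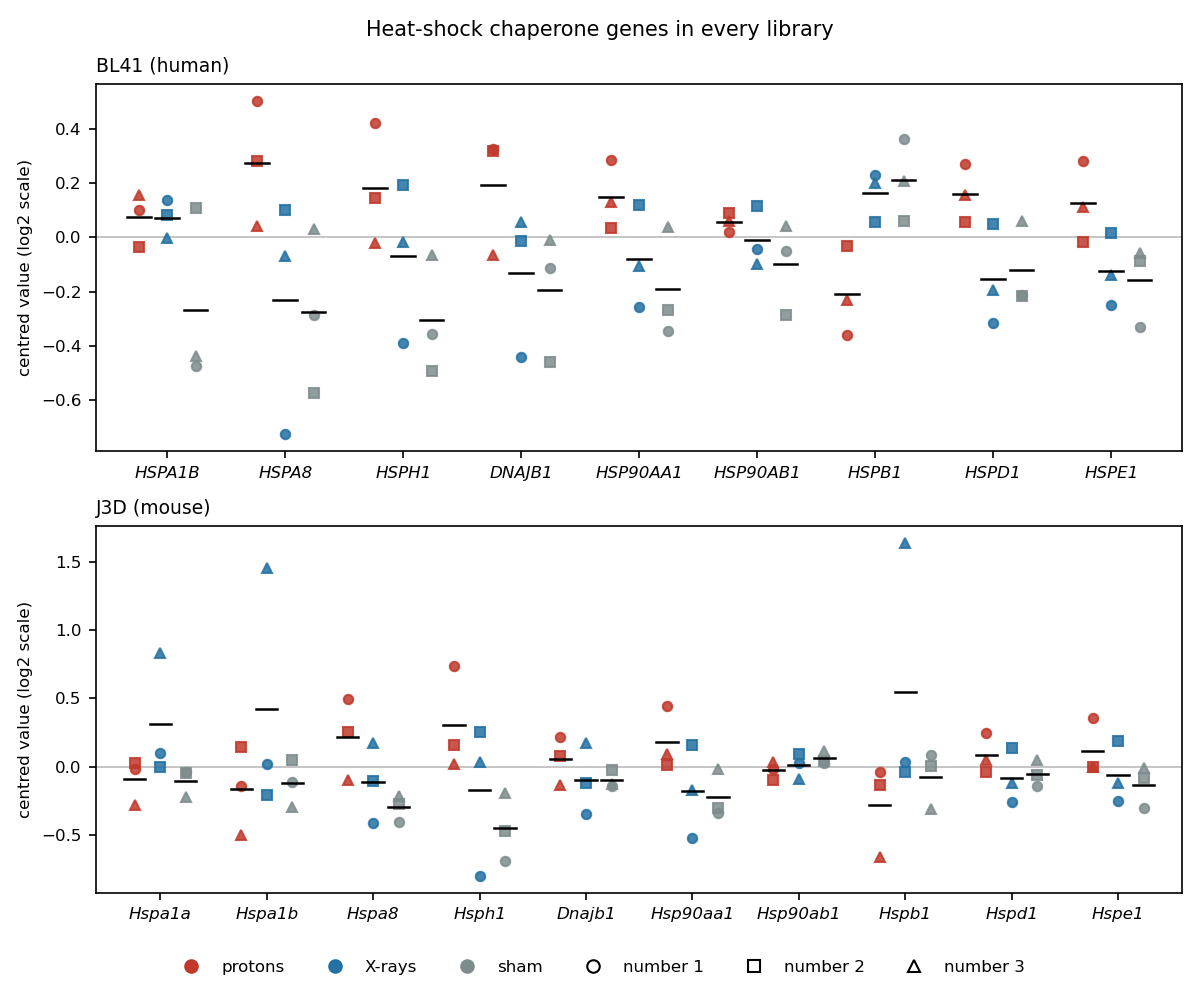
Centred value (y axis, log2 scale) of every heat-shock chaperone gene (x axis) in each library of BL41 (top) and J3D (bottom). Colours give protons, X-rays and sham from left to right, marker shapes the library number and black bars the mean of 3 libraries; proton library 1 stands high for most genes, and Hspa1a, Hspa1b and Hspb1 of J3D have 1 X-ray library far above the rest.

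In J3D Hsph1 and Hspa8 had the highest proton fold changes of the members, with a wide spread. Hsph1 had 0.73, 0.16 and 0.017 in proton libraries, −0.80, 0.25 and 0.035 in X-ray libraries, and −0.69, −0.47 and −0.19 in sham libraries. It ranked 94th of 12264 genes in proton library 1 and 6597th in proton library 3. All its proton libraries lay above all sham libraries, and X-ray library 1 was the lowest of the 9. The Hsph1 fold change was 0.76 ± 0.29 after protons (limma adjusted p = 0.247) and 0.28 ± 0.29 after X-rays (limma adjusted p = 0.977). Hspa8 had 0.50, 0.25 and −0.095 in proton libraries, −0.42, −0.11 and 0.17 in X-ray libraries, and −0.41, −0.27 and −0.22 in sham libraries. The sham values were the tightest group, and the proton values did not overlap them. Its fold change was 0.52 ± 0.18 after protons (limma adjusted p = 0.247) and 0.18 ± 0.18 after X-rays (limma adjusted p = 0.973). Dnajb1 had 0.22, 0.075 and −0.13 in proton libraries, −0.35, −0.12 and 0.17 in X-ray libraries, and −0.14, −0.022 and −0.12 in sham libraries. Its groups overlapped, with a fold change of 0.15 ± 0.14 after protons and −0.0033 ± 0.14 after X-rays, the X-ray value turning to 0.0039 with quantile normalization.

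Hsp90aa1 had 0.45, 0.010 and 0.095 in J3D proton libraries, −0.53, 0.16 and −0.17 in X-ray libraries, and −0.34, −0.31 and −0.016 in sham libraries. Hspe1 had 0.36, −0.0061 and −0.0036 in proton libraries, −0.25, 0.19 and −0.12 in X-ray libraries, and −0.30, −0.087 and −0.0084 in sham libraries. In both genes proton library 1 was the highest of the 9, and the other proton libraries cleared the highest sham library only narrowly. Fold changes after protons were 0.41 ± 0.19 for Hsp90aa1 (limma adjusted p = 0.257) and 0.25 ± 0.14 for Hspe1 (limma adjusted p = 0.291), and after X-rays 0.040 ± 0.19 and 0.073 ± 0.14. Hspd1 had 0.25, −0.037 and 0.050 in proton libraries, −0.26, 0.14 and −0.12 in X-ray libraries, and −0.14, −0.063 and 0.045 in sham libraries. Its groups overlapped, with fold changes of 0.14 ± 0.11 after protons and −0.027 ± 0.11 after X-rays. The genes above sham without overlap after protons (Hsph1, Hspa8, Hsp90aa1 and Hspe1) were 4 of 10, where 24.4% of all genes were, and 0 of 10 lay below, where 14.2% did.

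Hsp90ab1 stayed near its baseline in J3D. It had −0.020, −0.095 and 0.032 in proton libraries, 0.027, 0.095 and −0.093 in X-ray libraries, and 0.023, 0.039 and 0.12 in sham libraries. All 9 values lay within 0.12 of 0 and the groups overlapped. The fold change was −0.087 ± 0.085 after protons (limma adjusted p = 0.52) and −0.050 ± 0.085 after X-rays (limma adjusted p = 1).

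A single library set the J3D X-ray values of Hspb1 and the inducible HSP70 genes. Hspb1 had −0.040, −0.14 and −0.66 in proton libraries, 0.037, −0.042 and 1.64 in X-ray libraries, and 0.088, 0.0066 and −0.31 in sham libraries. Hspa1b had −0.14, 0.14 and −0.50 in proton libraries, 0.016, −0.21 and 1.46 in X-ray libraries, and −0.11, 0.045 and −0.30 in sham libraries. Hspa1a had −0.018, 0.025 and −0.28 in proton libraries, 0.10, −0.0052 and 0.83 in X-ray libraries, and −0.042, −0.046 and −0.22 in sham libraries. In X-ray library 3 these genes ranked 9th (Hspb1), 10th (Hspa1b) and 52nd (Hspa1a) of 12264, and in the proton and sham libraries of that number all 3 were at their lowest for the group. If values are centred within a number, as was inferred, a high X-ray library 3 lowers the other libraries of number 3. The X-ray fold changes were 0.62 ± 0.38 for Hspb1, 0.54 ± 0.36 for Hspa1b and 0.41 ± 0.20 for Hspa1a (limma adjusted p = 0.895, 0.917 and 0.822). Without X-ray library 3 they were 0.071 for Hspb1, 0.026 for Hspa1b and 0.15 for Hspa1a. The X-ray and sham groups of Hspa1a did not overlap, which makes 1 of 10 members higher, where 4.62% of all genes were, and 0 of 10 were lower, where 5.18% were. The other 7 genes stood between −0.17 and 0.17 in X-ray library 3. After protons the fold changes were −0.21 ± 0.38 for Hspb1, −0.046 ± 0.36 for Hspa1b and 0.013 ± 0.20 for Hspa1a, the last being −0.027 with trimmed means.

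Differences between libraries of the same number were uneven. Among BL41 libraries of number 1, protons minus sham had a median of 0.57 over the 9 members and protons minus X-rays 0.54, beside 0.095 and 0.026 over all genes. The corresponding BL41 medians were 0.30 and −0.031 at number 2, beside 0.15 and −0.022 over all genes, and 0.045 and 0.16 at number 3, beside 0.087 and 0.062. In J3D number 1 gave medians of 0.37 for protons minus sham and 0.53 for protons minus X-rays, beside 0.039 and 0.086 over all genes. The other J3D medians were 0.089 and −0.094 at number 2, beside 0.023 and −0.028 over all genes, and −0.0020 and −0.14 at number 3, beside 0.055 and 0.056. At number 3 the members' proton minus sham medians thus lay below those of all genes in both lines. In both lines the members' median proton differences were thus highest at number 1. HSPA8 in BL41 differed between protons and X-rays by 1.23 at number 1, 0.18 at number 2 and 0.11 at number 3. Hsph1 in J3D differed by 1.54 at number 1, −0.092 at number 2 and −0.019 at number 3. X-rays minus sham had its highest BL41 median at number 2 (0.39, beside 0.19 over all genes). At numbers 1 and 3 it had −0.031 and −0.080, beside 0.057 and 0.027 over all genes.

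**Figure D4:**
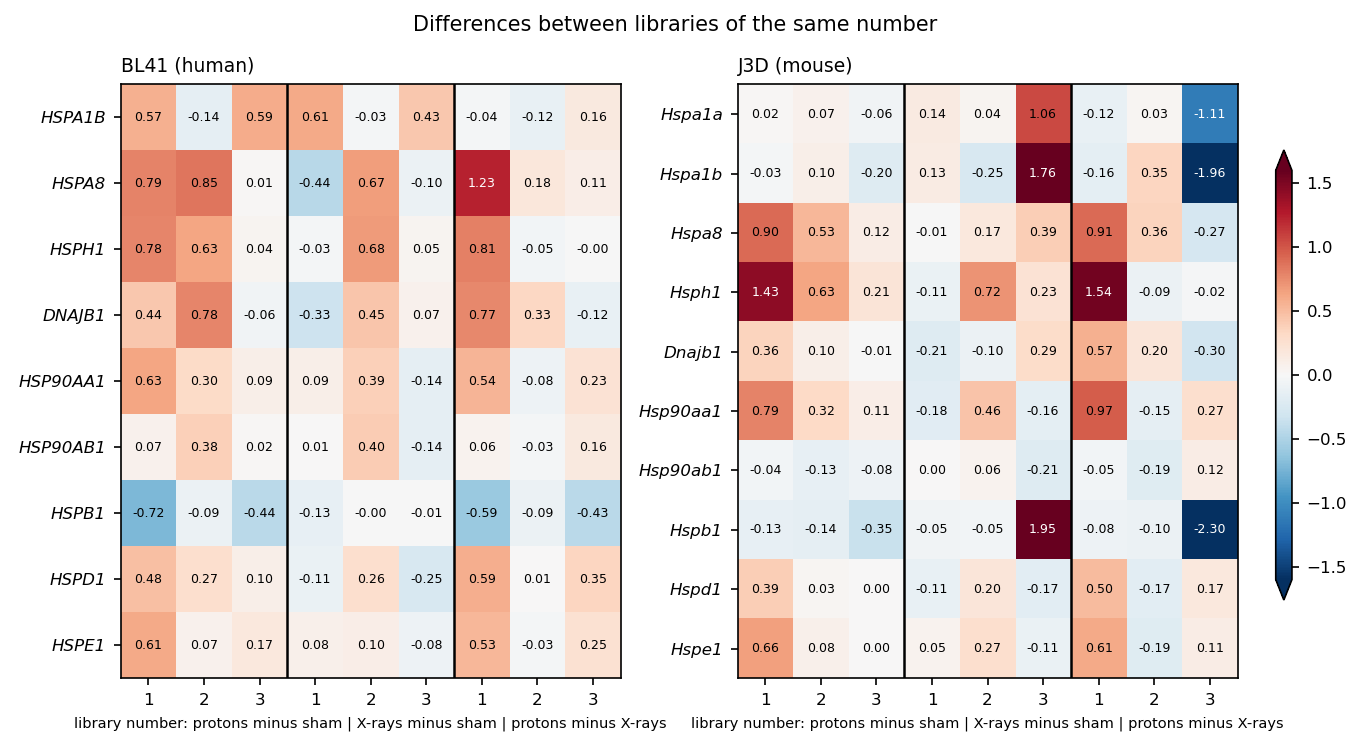
Differences between libraries of the same number (columns 1, 2 and 3 for protons minus sham, X-rays minus sham and protons minus X-rays) for each heat-shock chaperone gene in BL41 and J3D, coloured and printed on the log2 scale. Number 1 holds the highest proton minus X-ray differences of most genes, up to 1.23 in BL41 and 1.54 in J3D, and J3D number 3 holds the X-ray excess of Hspa1a, Hspa1b and Hspb1.

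Leaving out the 3 libraries of number 1, a step chosen after seeing the data, brought the median proton fold change to 0.20 in BL41 and 0.029 in J3D, beside 0.12 and 0.042 over all genes. Leaving out number 3 brought these medians to 0.37 in BL41 and 0.22 in J3D. No member was called by limma in either of these fits.

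The next comparison set the beams against each other at equal dose. The median member fold change of protons over X-rays was 0.25 in BL41, beside 0.019 over all genes, and 0.16 in J3D, beside 0.042. Above 0 were 8 of 9 BL41 genes, where 53.9% of all genes were, and 6 of 10 J3D genes, where 57.1% were. With trimmed means the BL41 count was 7 of 9, and the median over all genes was 0.0022. The highest value in BL41 was that of HSPA8 (0.51 ± 0.24, limma adjusted p = 0.44), followed by DNAJB1 (0.32 ± 0.17) and HSPD1 (0.31 ± 0.12, limma adjusted p = 0.411), and the lowest was that of HSPB1 (−0.37 ± 0.13, limma adjusted p = 0.411). HSPD1 was the 1 of 9 members above X-rays without overlap, where 11.0% of all genes were, and HSPB1 the 1 of 9 below, where 9.12% were. Above X-rays at every number were 2 of 9 (HSPA8 and HSPD1), where 16.9% of all genes were. At an unadjusted p under 0.05 there were 2 of 9 (HSPD1 and HSPB1), where 11.8% of all genes stood. In J3D the values ran from −0.83 ± 0.38 for Hspb1 to 0.48 ± 0.29 for Hsph1 (limma adjusted p = 0.392 and 0.409). Without X-ray library 3 the Hspb1 value was −0.28 and without number 3 it was −0.087. The Hsph1 value was 0.16 without X-ray library 1, 0.26 without proton library 1 and −0.055 without number 1. There 0 of 10 were clear of X-rays on either side, where 8.78% of all genes were higher and 6.77% lower, and 0 of 10 were above X-rays at every number, where 12.9% were. No J3D member reached an unadjusted p under 0.05 here, where 11.9% of all genes did. Without number 1 the median was 0.074 in BL41 and −0.046 in J3D. Without proton library 1 it was 0.16 and 0.063, and without X-ray library 1 it was 0.14 and 0.054.

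Other genes of the chaperone network did pass the threshold in BL41. Of 115 entries in 7 lists of regulators, co-chaperones and other chaperones, 8 rose after protons and 0 fell (6.96%, beside 6.82% of all genes). After X-rays 6 rose and 1 fell (6.09%, beside 5.35%). With trimmed means the counts were 2 after protons and 3 after X-rays, and with the replicate block they were 0 and 0. On simulated data the fit without the block made more false calls than its threshold allows. Each proton call was lost without any 1 of the 3 proton libraries, and each X-ray call without X-ray library 1. Nearly all calls over all genes were lost there too. Without proton library 1, 2 or 3 there were 3, 10 and 0 left, and without X-ray library 1 there were 0. BAG3, a nucleotide exchange factor of HSP70 that takes part in selective autophagy, had 0.20, 0.21 and −0.025 in proton libraries, 0.28, 0.28 and 0.32 in X-ray libraries, and −0.63, −0.79 and −0.50 in sham libraries. Every irradiated library lay above every sham library, with the X-ray libraries tightly together. BAG3 rose by 0.77 ± 0.12 after protons (limma adjusted p = 0.018, or 0.14 with the replicate block) and by 0.93 ± 0.12 after X-rays (limma adjusted p = 0.0113, or 0.0942 with the block). Bag3 in J3D had 0.080, −0.25 and 0.039 in proton libraries, −0.17, 0.26 and −0.0080 in X-ray libraries, and −0.28, 0.084 and −0.16 in sham libraries. There the groups overlapped, with fold changes of 0.074 ± 0.15 after protons and 0.15 ± 0.15 after X-rays. The lines were not tested against each other because their tables were normalized separately.

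**Figure D5:**
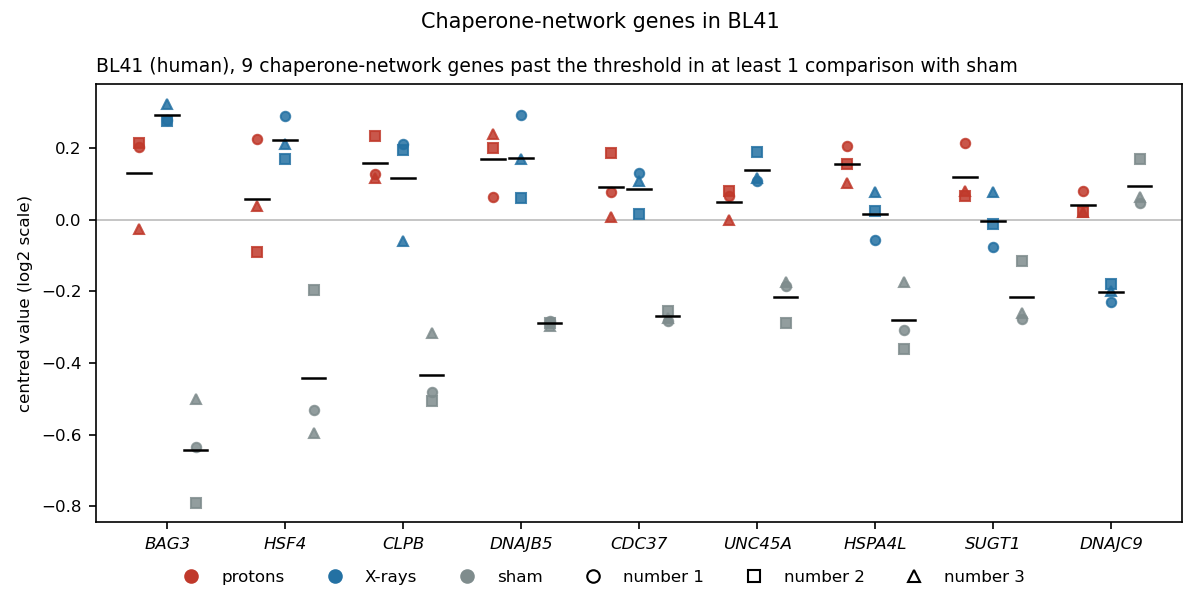
Centred value (y axis, log2 scale) of the 9 chaperone-network genes (x axis) that passed the threshold in BL41 after protons or X-rays. Colours give protons, X-rays and sham from left to right, shapes the library number and bars the mean of 3 libraries; in BAG3 all sham libraries lie at −0.50 or below while the irradiated libraries lie at −0.025 or above.

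Among the regulators, HSF1, the main heat-shock factor, had fold changes of 0.053 ± 0.093 after protons and 0.056 ± 0.093 after X-rays, both below 0 with trimmed means. HSF2, a related factor, had −0.067 ± 0.067 after protons and −0.049 ± 0.067 after X-rays, and neither gene was called. HSF4, a heat-shock factor best known from the lens, rose by 0.50 ± 0.13 after protons (limma adjusted p = 0.0494) and by 0.66 ± 0.13 after X-rays (limma adjusted p = 0.026). Its proton call held in 1 of the 9 fits with a library left out, and its X-ray call in 4 of 9. CLPB, a disaggregase of mitochondria, had 0.13, 0.23 and 0.12 in proton libraries, 0.21, 0.20 and −0.059 in X-ray libraries, and −0.48, −0.51 and −0.32 in sham libraries. Its sham libraries lay clear below both beams, and it rose by 0.59 ± 0.10 after protons (limma adjusted p = 0.0237) and by 0.55 ± 0.10 after X-rays (limma adjusted p = 0.026). DNAJB5, a J-domain protein, rose by 0.46 ± 0.086 after protons and by 0.46 ± 0.086 after X-rays, with irradiated libraries between 0.060 and 0.29 and sham libraries between −0.30 and −0.28. The HSP90 co-chaperone CDC37, which loads kinases, rose by 0.36 ± 0.072 after protons and by 0.35 ± 0.072 after X-rays. The CDC37 calls held in 3 of 9 left-out fits after protons and in 1 of 9 after X-rays. UNC45A, a co-chaperone of HSP90 for myosin, rose by 0.26 ± 0.064 after protons and by 0.35 ± 0.064 after X-rays, and its proton call was lost whichever of the 9 libraries was left out. With trimmed means the lists that hold DNAJB5, CDC37 and UNC45A had 0 genes called higher after either beam. Of all 15069 genes, 159 after protons and 211 after X-rays were then called higher.

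The HSP110-related HSPA4L and the HSP90 co-chaperone SUGT1 rose after protons, by 0.44 ± 0.079 and 0.34 ± 0.081, and had 0.30 and 0.21 after X-rays (limma adjusted p = 0.0629 and 0.153). The proton call held in 6 of 9 left-out fits for HSPA4L and in 1 of 9 for SUGT1, and that of SUGT1 was lost with trimmed means. The proton minus X-ray differences of HSPA4L and SUGT1, 0.14 and 0.12, were not called (limma adjusted p = 0.489 and 0.538). DNAJC9, a J-domain histone chaperone, had −0.051 after protons and fell by 0.30 on the log2 scale after X-rays (limma adjusted p = 0.0332). Its difference of 0.24 ± 0.063 between the beams was not called (limma adjusted p = 0.404), and its X-ray call was lost whichever of the 9 libraries was left out.

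Uncalled network genes differed in direction. AHSA1, which activates the ATPase of HSP90, had 0.32, 0.10 and 0.13 in BL41 proton libraries, −0.26, −0.043 and −0.14 in X-ray libraries, and −0.32, −0.12 and −0.0097 in sham libraries. Its proton group overlapped neither of the others, and the fold change after protons was 0.33 ± 0.11 (limma adjusted p = 0.0837). Ahsa1 in J3D had 0.61, 0.056 and −0.026 in proton libraries, −0.63, 0.20 and −0.17 in X-ray libraries, and −0.58, −0.21 and −0.10 in sham libraries. There X-ray and sham libraries of number 1 were far below the rest, and the fold change after protons was 0.51 ± 0.25 (limma adjusted p = 0.259). Proton library 1 was low in others, with PIH1D1, a co-chaperone of HSP90, at −0.39 in BL41, and Hspb11 at −0.34, Ubb at −0.22 and Clpb at −0.18 in J3D. In the endoplasmic reticulum, the HSP70 gene HSPA5 (BiP) had 0.42 ± 0.24 after protons and −0.057 ± 0.24 after X-rays in BL41, and 0.54 ± 0.29 and 0.10 ± 0.29 in J3D. HSP90B1 (GRP94), the HSP90 of that compartment, had 0.53 ± 0.16 after protons and 0.26 ± 0.16 after X-rays in BL41, and 0.37 ± 0.18 and 0.087 ± 0.18 in J3D, none of them called. In J3D 0 of 109 network entries were called by limma in any comparison. Hspb6 (HSP20), a small heat-shock protein like Hspb1, had −0.92, −0.056 and −0.63 in J3D proton libraries, 0.61, −0.034 and 0.38 in X-ray libraries, and 0.92, 0.13 and 0.63 in sham libraries. Its proton libraries were all below its sham libraries, as in 14.2% of all J3D genes. The fold change of −1.09 ± 0.30 after protons did not pass (limma adjusted p = 0.247). Hspb6 was named for the smallest p of the small heat-shock list in J3D. Of the 5 entries of that list, 3 were above 0 after protons, and their median was 0.16.

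By list in BL41, beside 5.91% of all genes called higher after protons and 4.83% after X-rays, the HSF regulators and other heat-shock targets had 3 of 18 entries higher after protons and 2 after X-rays, and the HSP70 family with its exchange factors 2 of 26 and 1. The J-domain proteins had 1 of 30 higher after protons, and 1 higher and 1 lower after X-rays. The HSP90 paralogues and co-chaperones had 3 of 20 and 2 of 20, and the mitochondrial chaperones and proteases 1 of 14 after each beam. The TRiC and prefoldin list had 0 of 18, with 2 of 18 after protons and 0 of 18 after X-rays at an unadjusted p under 0.05, beside 28.4% and 23.6% of all genes. The small heat-shock list had only 1 entry in BL41, HSPB11, which was not called and does not stand for that family. Some genes stand in more than 1 list. Beside these counts, markers of other cells also moved in BL41, and their part in the result was not tested. CD163, the only 1 of 11 myeloid markers in the table, had 0.58 ± 0.15 after protons and rose by 0.64 ± 0.15 after X-rays (limma adjusted p = 0.0456), while CD14 and LYZ were not in it. LCK, 1 of 4 T-cell and NK-cell markers present of 13 listed, fell by 0.59 on the log2 scale after protons, and the B-cell marker FCER2 rose by 0.86 ± 0.19 (limma adjusted p = 0.0363 and 0.0347). The CD163 call was lost without any 1 of the 3 X-ray libraries, and the LCK and FCER2 calls without any 1 of the 3 proton libraries. Over all genes 0, 143 and 246 X-ray calls were left without X-ray library 1, 2 or 3. Without proton library 1, 2 or 3 there were 3, 10 and 0 proton calls left. The mean of the 4 T-cell and NK-cell markers ran from −0.11 to −0.068 in proton libraries, 0.0052 to 0.14 in X-ray libraries and −0.087 to 0.21 in sham libraries. The mean of the 15 B-cell markers ran from 0.016 to 0.078 in proton libraries, −0.091 to 0.22 in X-ray libraries and −0.15 to 0.017 in sham libraries.

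The genes whose values followed the mean of the members most closely over the 9 libraries of a line were, in BL41, MECR, an enzyme of mitochondrial fatty acid synthesis (Pearson r 0.988), NOMO2 (0.984), SAMD15 (0.982), CHORDC1 (0.980) and NOC2L (0.979). CHORDC1 encodes an HSP90 co-chaperone. It stood at 0.44 in proton library 1 and between −0.61 and 0.16 in the other libraries, with a fold change of 0.49 ± 0.21 after protons (limma adjusted p = 0.166) and 0.086 ± 0.21 after X-rays. In J3D they were Sh3glb1 (0.965), Hapln1 (0.963), Usp14, a deubiquitinase of the proteasome (0.961), Caln1 (0.961) and Ube2a, a ubiquitin-conjugating enzyme (0.960). Among the members, the correlation of a gene with the mean of the others in BL41 was highest for HSPH1 (0.978) and lowest for HSPB1 (−0.797), with 0.033 for HSPA1B. In J3D it ran from −0.620 for Hsp90ab1 to 0.844 for Dnajb1, and without number 1 from −0.693 for Hsp90ab1 to 0.956 for Hspa1a. The J3D mean reached 0.38 in X-ray library 3, where Hspb1, Hspa1b and Hspa1a were high. It therefore does not stand for a pattern that all J3D members share. These likenesses are a description over 9 libraries that share their number and its centring.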

How the data were processed

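RNA was sequenced from 18 libraries. The submitters' processing notes name TopHat2 and, as genome builds, hg19 and mm10; how reads were counted, annotated and normalized is not stated there. The values the authors deposited, 1 table per line (15069 and 12264 genes), are logarithms relative to a baseline. These deposited values were read as log2 because the authors gave no base; with another base all fold changes would scale by 1 common factor. They were inferred from the values to be centred per gene within a library number over 4 libraries, of which 3 were analysed here. Depth and absolute levels are therefore unknown, and precision rests on the spread between libraries. Nothing in the labels says that the replicates came from separate cultures. The p-values therefore measure the spread between these libraries only, and that spread may be technical.

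Each line was fitted separately with limma 3.58.1 (statmod 1.5.0, R 4.3.3; trend and robust moderation) on 9 libraries with 3 group means and no block, and p was adjusted over all genes (Benjamini-Hochberg, threshold 0.05). Tested on simulated data centred in the same way, the fit without a block made a larger share of false calls than the threshold allows in every draw, and the fit with the block a smaller one, so the count of calls without a block is likely too high. The simulated data had few changed genes and independent noise. They therefore do not give the size of such an excess in the measured data. An exact permutation test of 3 against 3 libraries cannot go below a two-sided p of 0.1 and was not used. Named genes were the 10 members, up to 4 called genes per list and comparison (or that of smallest p), 5 fixed regulators and checks (HSF1, HSF2, HSPA5, HSP90B1 and CDKN1A), and the 5 genes most like the members' mean in each line. The members and lists were chosen with earlier results of these data known. Alternatives were a replicate block, trimmed means, quantile normalization, ordinary moderation, a filter on low values (which removed no gene), fits of the groups compared alone, averaged repeated symbols and leaving out each library. Promoter windows came from RefSeq (GRCh38.p14), and mouse promoters were not analysed here. Python 3.11.15, numpy 2.4.6, pandas 2.3.3 and matplotlib 3.10.9 were used.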

Additional observations from a re-analysis of the deposited data

Results flagged for a closer look

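HSP90AB1 was flagged by a rule on the proton libraries. Every library of one line lay above its sham mean and every library of the other line lay below it. The share of all genes that meet this rule was not counted. Proton and sham groups overlapped in both lines, and neither fold change was called (limma adjusted p = 0.311 in BL41 and 0.52 in J3D). In BL41 the proton libraries exceeded the sham mean by 0.154 on average (0.117 to 0.188), and in J3D they differed from it by −0.0869 on average (−0.154 to −0.0272). The median of all genes in BL41 was 0.12 after protons. The BL41 value was 0.039 with trimmed means, 0.040 with quantile normalization and 0.060 without sham library 2, and the J3D value was −0.13 with trimmed means and −0.15 with quantile normalization. The difference between the lines was not tested, since their tables were normalized separately.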

How the results depend on the processing

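Of 1083 recomputed member fold changes, 2 passed the threshold (HSPB1 with quantile normalization and HSPA1B without sham library 2, both in BL41 after protons) and 67 that were not called turned sign. With the replicate block, BL41 calls over all genes were 0 after protons and 0 after X-rays, and the network counts were 0 and 0; it called 0 genes elsewhere. The labels give no meaning to the numbers, and the inferred centring prevents a check of pairing. BL41 genes called after protons numbered 1027 (891 higher, 136 lower), 343 with trimmed means (159 higher, 184 lower) and 533 with quantile normalization (240 higher, 293 lower). After X-rays they numbered 806 (728 higher, 78 lower), 335 with trimmed means (211 higher, 124 lower) and 129 with quantile normalization (74 higher, 55 lower). Trimmed means put the median of all genes after protons at 0.0044, against 0.12 as deposited, and left 3 network calls after X-rays and 2 after protons. Both counts were 0 when the 2 groups were fitted alone, with the block and trimmed means together, and without number 1 or number 3. Leaving out 1 library gave 0 to 710 genes after protons and 0 to 808 after X-rays (0 after protons without proton library 3, and 0 after X-rays without X-ray library 1). Members called in BL41 after protons were 1 with quantile normalization and 0 to 1 over the left-out libraries. Protons against X-rays in BL41 gave 1 gene with quantile normalization and 0 to 1 over left-out libraries. In J3D protons against sham gave 0 to 1 and protons against X-rays 0 to 1 over left-out libraries, and protons against sham 1 without number 3. The causes were not tested. Fits without number 1 or number 3 and the block with trimmed means were chosen after seeing the data. Depth is unknown, and 3 libraries per group limit what these fits can call.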
